A study of Mus musculus with 48 samples.

Results

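Wee1, Cdkn1a, Ccnd1, Ccng1, Ccng2, Gadd45a, Gadd45g and Btg1 are 8 genes that hold cells out of division or govern entry into it, and they are described here over the day in mouse liver. They were chosen by name, with earlier results of these data known, and found by Ensembl gene ID. All 8 were listed in all 48 libraries, among 11306 genes listed in either assay, and all 8 passed the minimum mean of 1 RPKM in both assays that left 9445 genes for testing. RPKM is the number of reads scaled to the length of the gene and the size of the library. Livers came from male C57BL/6JRj mice of 11 to 12 weeks, which had been kept for 2 weeks under 12 h of light and 12 h of darkness and carried no mutation or treatment named in the labels. Time is given as zeitgeber time (ZT), in hours after lights on, with 12 time points spaced 2 h apart. Each time point had 2 replicates, and for each of them 2 livers of different mice were lysed as 1 pool, so that 24 pools came from 48 mice. Each lysate, made with cycloheximide to hold ribosomes on their mRNA, gave a library of ribosome footprints (mRNA fragments left by RNase I under ribosomes) and a library of total RNA. Because whole livers were pooled, fewer cells of a type and less RNA per cell cannot be told apart in any value below.

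A dividing cell passes through G1, DNA synthesis and G2 before mitosis, driven by cyclins bound to cyclin-dependent kinases (CDKs). Brakes act on these kinases. Cdkn1a (p21) binds and inhibits them, Wee1 puts an inhibitory phosphate on CDK1 before mitosis, and the Gadd45, Btg and cyclin G proteins are linked to growth arrest after stress or on leaving the cycle. Cyclin D1, encoded by Ccnd1, works the other way, as it activates CDK4 and CDK6 in G1. Wee1 and Cdkn1a are known outputs of the circadian clock in liver, an organ whose hepatocytes mostly rest outside the cycle.

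Markers of hepatocytes were high in the livers. Albumin (Alb) stood at 48569 to 96145 RPKM in footprints, against 28493 to 53064 RPKM in total RNA. Of 20 proliferation markers 18 were listed, all but Ccnb1 and Bub1, and their sum was 104 to 156 RPKM in footprints and 78.0 to 123 RPKM in total RNA. Mki67, a marker of cycling cells, had a median of 0.328 RPKM in footprints and 0.867 RPKM in total RNA, and 6 listed markers averaged under 1 RPKM in footprints and 4 in total RNA. The genes of DNA synthesis Pcna (median 53.7 RPKM in footprints and 37.7 RPKM in total RNA) and Tk1 (30.7 and 19.6 RPKM) were the highest of the list. Depth on listed genes, estimated from the size of the RPKM step that 1 read makes, was 13.9 to 43.1 M reads in footprint libraries and 3.88 to 23.8 M reads in total RNA libraries. In 6 of the 24 pools (both of ZT2, the first of ZT4 and of ZT6, and the second of ZT8 and of ZT16) pancreatic acinar transcripts summed to over 100 RPKM in total RNA, and results that changed without those pools are given with and without them.

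Stretches upstream of 4 of the genes are shown here because these genes, described below, are rhythmic or vary most between pools, and because each window holds a motif of a factor linked to the clock, feeding or stress. They are from RefSeq, build GRCm38.p6, and run 5′ to 3′ on the strand of the gene, cut where needed to stay upstream of the GENCODE start too. RefSeq windows were at hand for 6 of the 8 genes, without Wee1 and Ccnd1. The Gadd45a stretch (chr6:67037458-67037657, minus strand) has in capitals a D-box, the site of PAR bZIP clock output factors, read on the other strand as TTATGCAA.
Gadd45a: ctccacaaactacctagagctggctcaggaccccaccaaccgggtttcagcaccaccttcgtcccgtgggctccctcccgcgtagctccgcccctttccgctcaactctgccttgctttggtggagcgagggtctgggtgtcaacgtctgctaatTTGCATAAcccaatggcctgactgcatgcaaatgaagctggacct
The Btg1 stretch (chr10:96616751-96617000, plus strand) has in capitals a FOXO site, GTAAACA on the other strand.
Btg1: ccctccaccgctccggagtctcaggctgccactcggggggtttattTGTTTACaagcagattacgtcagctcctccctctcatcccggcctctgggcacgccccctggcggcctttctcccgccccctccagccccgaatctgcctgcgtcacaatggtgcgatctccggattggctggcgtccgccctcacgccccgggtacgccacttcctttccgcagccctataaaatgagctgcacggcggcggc
The Gadd45g stretch (chr13:51846425-51846674, plus strand) has in capitals an E-box, CACGTG, the site of the CLOCK and BMAL1 pair and of MYC.
Gadd45g: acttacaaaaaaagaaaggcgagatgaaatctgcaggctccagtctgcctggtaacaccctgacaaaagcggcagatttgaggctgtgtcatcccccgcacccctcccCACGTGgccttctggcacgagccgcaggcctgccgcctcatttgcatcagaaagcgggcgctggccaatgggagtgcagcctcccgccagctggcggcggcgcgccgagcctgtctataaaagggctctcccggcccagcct
The Cdkn1a stretch (chr17:29090729-29090975, plus strand) has in capitals 2 matches to the p53 half-site.
Cdkn1a: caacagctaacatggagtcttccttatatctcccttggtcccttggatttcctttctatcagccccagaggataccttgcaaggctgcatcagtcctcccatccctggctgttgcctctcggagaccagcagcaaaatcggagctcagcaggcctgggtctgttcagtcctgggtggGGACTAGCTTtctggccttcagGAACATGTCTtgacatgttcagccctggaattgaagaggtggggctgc
In all RefSeq windows of 250 bases before a start, 32851 in number and read on both strands, a D-box (TTATGTAA, TTACGTAA or TTATGCAA) was present in 1.61%, the FOXO site in 3.17%, the E-box in 6.02% and the p53 half-site in 7.13%. The Ccng2 window and the second Cdkn1a window held none of these. The Ccng2 window lay wholly past the GENCODE start of the gene, so the bases upstream of that start were not searched. No window of the 6 genes held the ROR element (TAGGTCA or TGGGTCA, in 5.38% of all windows) or the cyclic AMP element (TGACGTCA, in 1.55%). The p53 half-site was also matched in the Ccng1 window, and in the Gadd45a window within the part cut from the stretch above. A match is a match of letters and says nothing of binding.

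Of the 8 genes, 6 were rhythmic in footprints, where 16.7% of all tested genes were, and 7 were rhythmic in total RNA, where 15.8% were. A gene was called rhythmic where limma's moderated F test of a 24 h cosine and sine gave a Benjamini-Hochberg adjusted p under 0.05 over all 9445 genes and the fitted peak was at least 1.5-fold above the trough. Wee1, Cdkn1a, Ccnd1, Ccng2, Gadd45a and Btg1 were called in both assays, as were 11.0% of all tested genes. Gadd45g was called in total RNA alone, and Ccng1 in neither assay. Without the 6 pools with pancreatic transcripts, 6 genes were called in footprints and 5 in total RNA. The shares of all tested genes given above are for all 24 pools and do not apply to these 2 counts. With no minimum fold, the same numbers as at first passed, 6 in footprints and 7 in total RNA, beside 45.0% and 43.1% of all tested genes. The called genes peaked at 2 parts of the day. Ccnd1, Gadd45a and Wee1 peaked from late in the light to early in the dark, and Cdkn1a, Ccng2 and Btg1 around the end of the dark, with Gadd45g early in the light in total RNA. The median fitted fold of the 8 genes was 2.66 in footprints and 2.45 in total RNA, beside 1.23 and 1.25 in these assays over all tested genes.

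**Figure D1:**
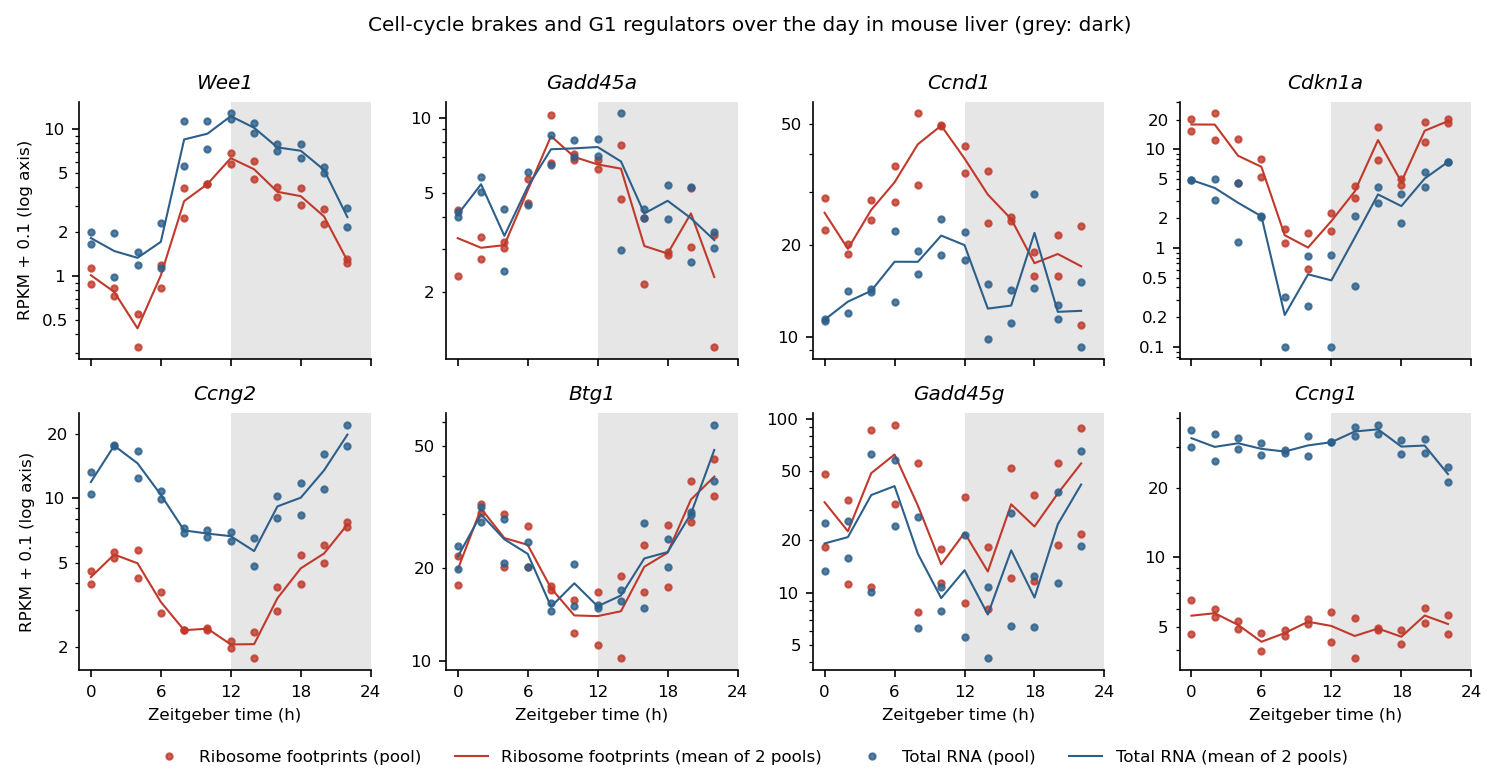
RPKM of the 8 genes (log axis, 0.1 added) against zeitgeber time in footprints (red) and total RNA (blue), with each pool as a point, the mean of the 2 pools as a line, and the dark hours in grey. Wee1, Gadd45a and Ccnd1 were high near the change from light to dark, Cdkn1a, Ccng2 and Btg1 near the change from dark to light, while the pools of Gadd45g lay far apart and Ccng1 stayed level.

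Wee1 (chr7:110122046-110143286, plus strand, ENSMUSG00000031016) peaked at nightfall. Coordinates of genes are those of GENCODE M21 on GRCm38. Its footprints stood at 6.76 and 5.69 RPKM in the pools of ZT12 and at 0.227 and 0.450 RPKM in those of ZT4. Its total RNA stood at 12.7 and 11.6 RPKM at ZT12 and at 1.09 and 1.36 RPKM at ZT4. In both assays ZT12 was the highest time point and ZT4 the lowest, and the pools of these time points were far from overlapping. As they were picked as the extremes, this gap is no test. The 6 footprint libraries of ZT12 to ZT16 ranged from 3.34 to 6.76 RPKM (median 5.09) and the 6 of ZT0 to ZT4 from 0.227 to 1.03 RPKM (median 0.677). The fitted fold was 9.07 in footprints (95% interval 6.25 to 13.2, limma adjusted p = 4.80e-09) and 8.87 in total RNA (5.91 to 13.3, adjusted p = 2.25e-08). The fitted peaks were ZT14.0 in footprints and ZT13.8 in total RNA, and the lag of footprints was 0.192 h (95% interval -0.768 to 1.15 h). Intervals of lags and of differences in log2 range take the assays as independent, leaving out that both libraries of a pool came from 1 lysate. With 1 RPKM added in place of 0.1, these folds were 4.31 in footprints and 5.67 in total RNA, as the troughs were near or under 1 RPKM. Footprints were at 0.727 and 1.09 RPKM at ZT6 and at 2.38 and 3.87 RPKM at ZT8, so that these neighbouring time points did not overlap. At ZT18 they were still at 3.85 and 2.93 RPKM. A 12 h component passed the test for Wee1 in footprints (1.86-fold, limma adjusted p = 0.0303), alone among the 8 genes and beside 4.49% of all tested genes. In total RNA the 12 h component of Wee1 was 1.79-fold with an adjusted p of 0.0755, and none of the 8 genes was called, beside 5.05% of all tested genes (Ccng1 and Wee1 had an unadjusted p under 0.05). The footprint call was lost without the 6 pools with pancreatic transcripts, and also without the first pool of ZT4 or either pool of ZT16.

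Gadd45a (chr6:67035096-67037457, minus strand, ENSMUSG00000036390) encodes a small stress protein that binds the kinase MAP3K4 and the replication factor PCNA, and is a known target of p53. Its footprints were 6.51 and 10.2 RPKM at ZT8 and 1.11 and 3.30 RPKM at ZT22. In total RNA it had 6.35 and 8.43 RPKM at ZT8 and 2.90 and 3.38 RPKM at ZT22. The pools of ZT8 were thus above those of ZT22 in both assays. These time points had the highest and lowest mean footprints and were picked as such, so the gap between them is no test. In total RNA the highest mean was at ZT12. Its fit gave a fold of 2.84 in footprints (1.95 to 4.13, adjusted p = 0.000272) and 1.99 in total RNA (1.40 to 2.82, adjusted p = 0.00811), with peaks at ZT10.1 and ZT10.2 in these assays. At ZT14 the 2 pools disagreed, with 7.68 and 4.65 RPKM in footprints and 10.3 and 2.85 RPKM in total RNA. Reads were few, 12 to 147 a library in footprints and 7 to 103 in total RNA, as computed from the longest coding sequence of the gene.

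Ccnd1 (chr7:144929931-144939925, minus strand, ENSMUSG00000070348), the one driver of the cycle in the set, peaked late in the light by the fit, near the peak of Gadd45a. Footprints reached 49.5 and 49.2 RPKM at ZT10 and were 10.8 and 23.0 RPKM at ZT22. Total RNA was 18.5 and 24.3 RPKM at ZT10 and 9.14 and 15.0 RPKM at ZT22. The ZT10 pools were above the ZT22 pools in both assays. These time points had the highest and lowest mean footprints and were picked as such, so the gap between them is no test. In total RNA the highest mean was at ZT18, in the dark (21.8 RPKM), and the lowest at ZT0 (11.3 RPKM). By the fit, Ccnd1 changed 2.48-fold in footprints (1.93 to 3.20, adjusted p = 1.11e-05, peak ZT9.37) and 1.53-fold in total RNA (1.14 to 2.04, adjusted p = 0.0491, peak ZT10.2). The fitted log2 range was larger by 0.70 in footprints (95% interval 0.15 to 1.26, not adjusted over genes and without the pairing of lysates). In the interaction fit over both assays the difference in rhythm had a limma adjusted p of 0.419 and did not pass. The total RNA call was narrow. It was lost in 24 of 35 alternative settings, among them leaving out any single pool other than the first of ZT6, ZT16 or ZT18 or the second of ZT14 or ZT22, and the adjusted p was 0.126 without the 6 pools with pancreatic transcripts. The highest total RNA value of Ccnd1, 29.3 RPKM, was in the first pool of ZT18, beside 14.4 RPKM in the second, and without that first pool the adjusted p was 0.00257. The end of Ccnd1 overlaps LTO1 on the opposite strand, and whether the counting used strand is not given in the sources used here.

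Cdkn1a (chr17:29090976-29100727, plus strand, ENSMUSG00000023067) had the widest fitted fold of the 8 genes in both assays, although with 1 RPKM added in place of 0.1 it came below Wee1 in total RNA (5.35-fold for Cdkn1a and 5.67-fold for Wee1). Its footprints were 18.2 and 20.1 RPKM at ZT22, and 0.512 and 1.32 RPKM at ZT10. Its total RNA was 7.30 and 7.42 RPKM at ZT22, and 0.159 and 0.728 RPKM at ZT10. It was listed at 0 in total RNA in the first pool of ZT8 and the second of ZT12, where a count of 0 allows up to 0.412 and 0.586 RPKM (3 reads, counting error only). The lowest footprint values fell in the same hours, with 1.46 and 1.04 RPKM at ZT8 and 1.38 and 2.18 RPKM at ZT12. Fitted folds were 13.3 in footprints (7.22 to 24.4, adjusted p = 1.15e-06, peak ZT22.5) and 19.6 in total RNA (8.47 to 45.2, adjusted p = 1.46e-05, peak ZT22.2). The size in total RNA rests on few reads, 0 to 55 a library with a median of 11.5, and reached 44.6 with 0.01 RPKM added. In footprints, with 5 to 247 reads a library, it was 8.29 with 1 RPKM added. The course was not smooth in the dark. Footprints were at 16.9 and 7.71 RPKM at ZT16, at 4.26 and 4.91 RPKM at ZT18 and at 18.9 and 11.7 RPKM at ZT20, so that both ZT18 pools lay below all 4 of its neighbours. Total RNA had 4.03 and 2.76 RPKM at ZT16 and 1.71 and 3.42 RPKM at ZT18, and these pools overlapped. The 12 h component of Cdkn1a in footprints was 2.2-fold with a limma adjusted p of 0.153.

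Ccng2 (chr5:93267257-93276231, plus strand, ENSMUSG00000029385) encodes cyclin G2, an unconventional cyclin that is high in resting cells and a known FOXO target. By the largest difference between pools it gave the most even replicates of the rhythmic genes. By the median difference in total RNA it did not, at 1.26-fold beside 1.20-fold for Btg1. Footprints were 7.25 and 7.65 RPKM at ZT22 and 1.89 and 2.05 RPKM at ZT12, and total RNA was 22.1 and 17.6 RPKM at ZT22 and 6.89 and 6.23 RPKM at ZT12. The 2 pools of a time point differed by at most 1.38-fold in footprints, and by at most 1.46-fold in total RNA. For Ccng2 the fitted fold was 2.96 in footprints (2.37 to 3.68, adjusted p = 1.10e-07, peak ZT23.0) and 2.76 in total RNA (2.2 to 3.46, adjusted p = 4.41e-07, peak ZT23.9). The footprint peak came before the total RNA peak by a lag of -0.902 h. The 95% interval of this lag, -2.05 to 0.248 h, includes 0 but leaves out the pairing of lysates. The 6 libraries of ZT18 to ZT22 lay between 3.85 and 7.65 RPKM in footprints, and those of ZT12 to ZT16 between 1.68 and 3.73 RPKM, without overlap. In total RNA the same windows spanned 8.29 to 22.1 RPKM and 4.74 to 10.2 RPKM, with some overlap.

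Btg1 (chr10:96617006-96622809, plus strand, ENSMUSG00000036478), an antiproliferative protein that binds the CCR4-NOT deadenylase and is common in resting cells, peaked near Ccng2 by the fit. It had 34.2 and 45.2 RPKM in footprints at ZT22 and 16.6 and 11.1 RPKM at ZT12. It had 38.4 and 58.6 RPKM in total RNA at ZT22 and 14.8 and 15.1 RPKM at ZT12. The ZT22 pools were above the ZT12 pools in both assays. These time points had the highest and lowest mean footprints and were picked as such, so the gap between them is no test. In total RNA the lowest mean was at ZT8. ZT2 formed a shoulder with 30.1 and 32.2 RPKM in footprints, above the 17.6 and 21.8 RPKM of ZT0. For Btg1 the fitted fold was 2.25 in footprints (1.68 to 3.02, adjusted p = 0.000283, peak ZT23.3) and 2.14 in total RNA (1.65 to 2.79, adjusted p = 0.000190, peak ZT22.9). Btg1 has the pseudogenes Btg1-ps1 and Btg1-ps2, both absent from the deposited tables, and its level is uncertain to the extent that reads are shared with them. Of all tested genes, Dapk1 was the most alike to both Ccng2 and Btg1 over the 24 total RNA libraries, with r = 0.941 and r = 0.869 on the log2 scale, a description over libraries that share their time points.

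**Figure D2:**
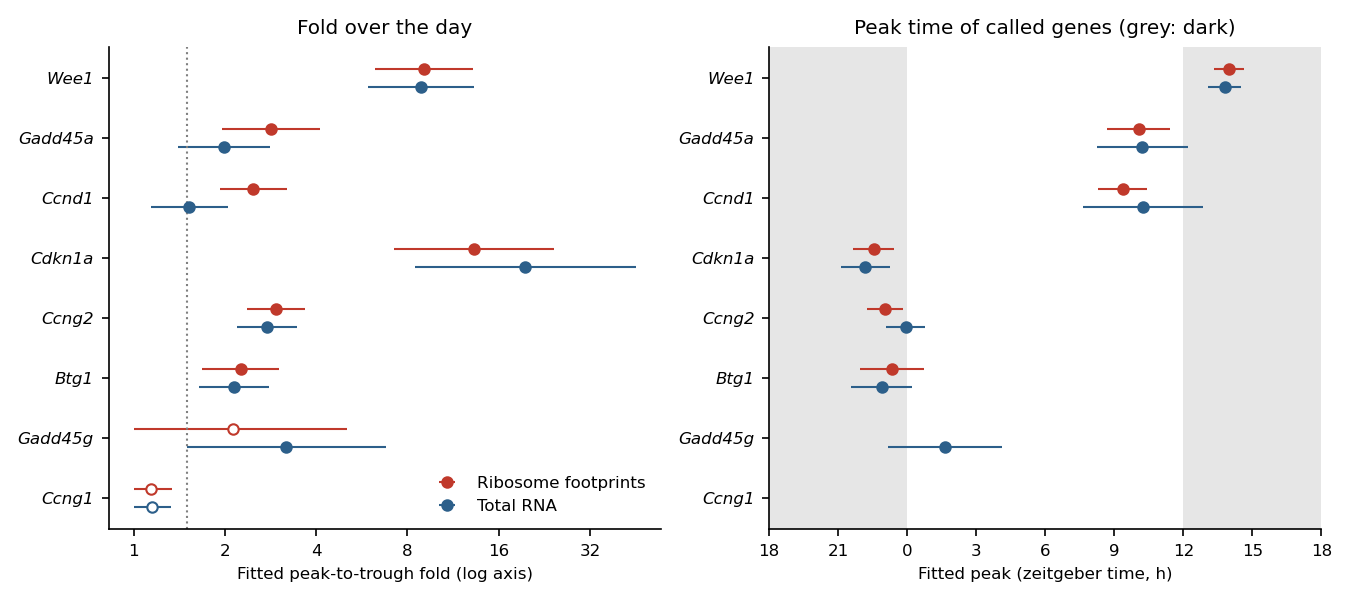
Fitted peak-to-trough fold (left, log axis, dotted line at 1.5) and fitted peak in zeitgeber time (right, dark hours in grey, called genes only) in footprints (red) and total RNA (blue), with 95% intervals and open points for genes not called. Cdkn1a and Wee1 have the widest folds, and the footprint and total RNA peaks of each gene called in both assays have overlapping intervals.

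Gadd45g (chr13:51846678-51848468, plus strand, ENSMUSG00000021453), a relative of Gadd45a that is induced by cytokine signals, had the pools of a time point far apart. At ZT4 the 2 pools had 86.4 and 10.7 RPKM in footprints and 62.6 and 10.0 RPKM in total RNA. At ZT8 they had 7.66 and 55.5 RPKM in footprints and 6.18 and 27.1 RPKM in total RNA. The pool that was high in footprints was also the one high in total RNA at 11 of the 12 time points, ZT10 being the exception, where a median gene had the same direction at 7. Btg1 also had the same direction at 11 time points, and Cdkn1a and Ccng1 at 10. The 2 pools differed by 1.57 to 8.05-fold in footprints (median 3.05), and by 1.37 to 6.21-fold in total RNA (median 2.95). The SD between pools of a time point was 1.35 in footprints and 1.15 in total RNA on the log2 scale, beside medians over all tested genes of 0.174 and 0.177 in these assays. These values put Gadd45g at percentile 99.7 of all tested genes in footprints and 99.3 in total RNA.

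The 24 h rhythm of Gadd45g was measured with little precision. The fitted fold was 2.13 in footprints, with a 95% interval of 1 to 5.04 and an adjusted p of 0.295, and it was not called. In total RNA the fold was 3.19 (1.5 to 6.81, adjusted p = 0.0382, peak ZT1.65). The call in total RNA was lost without the 6 pools with pancreatic transcripts (adjusted p = 0.0682), without both pools of ZT18, and without the first pool of ZT2, ZT4, ZT10, ZT12, ZT14 or ZT16 or the second of ZT22, with adjusted p values of 0.0502 to 0.0890 in these cases. The interaction fit, which leaves out the pairing of lysates, gave Gadd45g an adjusted p of 0.967. With both libraries of a lysate paired, limma gave 1.59-fold (1.20 to 2.11, adjusted p = 0.108). A difference in rhythm between footprints and total RNA thus did not pass in either fit.

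**Figure D3:**
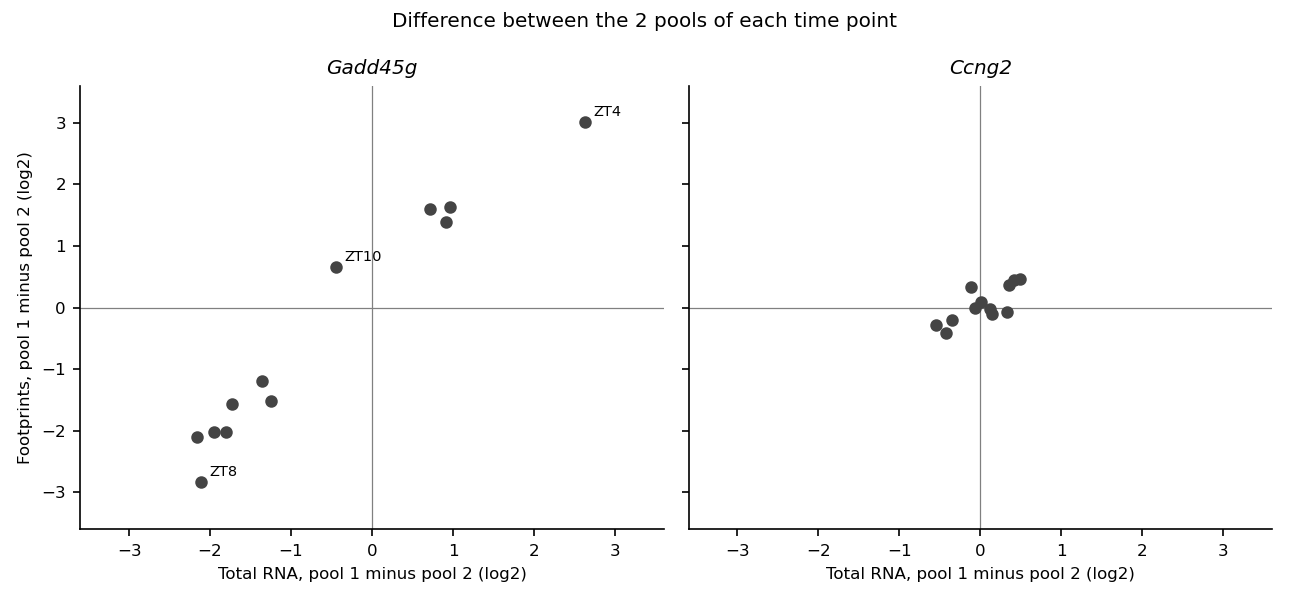
Difference between the first and second pool of each of the 12 time points, as log2 RPKM in footprints (vertical axis) and total RNA (horizontal axis), for Gadd45g (left) and Ccng2 (right). For Gadd45g, 11 of 12 points have the same sign in both assays, ZT4 and ZT8 lie farthest out and ZT10 is the exception, whereas all points of Ccng2 stay near 0.

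Ccng1 (chr11:40748552-40755311, minus strand, ENSMUSG00000020326) encodes cyclin G1, a p53 target that recruits the phosphatase PP2A to MDM2, and it was the level gene of the set. Footprints ranged from 3.56 to 6.45 RPKM with a median of 4.85 RPKM over 24 libraries, and total RNA from 21.1 to 37.4 RPKM with a median of 31.3 RPKM. The fitted fold was 1.14 in footprints (1 to 1.34, adjusted p = 0.337) and 1.15 in total RNA (1 to 1.33, adjusted p = 0.265). The upper ends of these intervals lie under the 1.5-fold set for a call. In total RNA the lowest 2 libraries, with 21.1 and 24.6 RPKM, were both pools of ZT22, and the test over time points gave Ccng1 an adjusted p of 0.0850 there.

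With the 12 time points as separate levels in limma, and no minimum fold, 6 of the 8 genes differed between time points in footprints and 4 in total RNA, beside 26.7% and 37.0% of all tested genes in these assays. The 6 were those with a rhythm in footprints, and the 4 were Wee1, Cdkn1a, Ccng2 and Btg1. Without the 6 pools with pancreatic transcripts, 4 genes differed in each assay, a count to which these shares of all tested genes do not apply. The pools of time points were also compared in order of mean footprints. That order sets the closest means side by side, which favours overlap, and its steps are not steps in time. With the time points ranked by mean footprints, the pools of neighbours in rank did not overlap in 6 of 11 steps for Wee1. They did not overlap in 5 for Ccng2, 3 for Cdkn1a, 2 for Btg1 and 1 for Ccnd1, and overlapped at every step for Gadd45a and Gadd45g. Ccng1, which was not rhythmic, also had 1 step without overlap. Ranked by mean total RNA, steps without overlap were 4 for Wee1, and 2 each for Ccng2, Btg1 and Ccnd1. Cdkn1a and Ccng1 had 1 each there, and Gadd45a and Gadd45g 0. Such steps were not counted over all tested genes, so these counts are a description.

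Translation efficiency is the ratio of footprints to total RNA, and it is relative between genes. No gene of the 8 had a rhythm in efficiency by limma's interaction of assay with the 24 h terms, beside 0.371% of all tested genes, and adjusted p values lay between 0.419 for Ccnd1 and 0.998 for Wee1. Ccnd1 alone had an unadjusted p under 0.05. With both libraries of a lysate paired (the replicate block), 0 of the 8 genes passed again, beside 3.23% of all tested genes, while 4 had an unadjusted p under 0.05. These were Ccng2 (1.29-fold, adjusted p = 0.0678), Gadd45g (1.59-fold, adjusted p = 0.108), Ccnd1 (1.66-fold, 1.18 to 2.34, adjusted p = 0.151) and Ccng1 (1.30-fold, adjusted p = 0.164). For Btg1 the paired interval reached 1.36-fold, and for Wee1 1.55-fold, so larger daily swings in their efficiency lie outside these intervals. For Cdkn1a it reached 3.29-fold, and little can be said of it.

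The mean efficiency over the day spanned most of the range of liver genes. Cdkn1a had a mean log2 efficiency of 1.79 ± 0.92 (SD, n = 24 pools), at percentile 99.7 of the 9445 genes, and Ccng1 one of -2.61 ± 0.25, at percentile 1.15. As ratios these are 3.45 footprint RPKM for each total RNA RPKM for Cdkn1a and 0.164 for Ccng1. Ccnd1 (0.83 ± 0.49, percentile 95.6) and Gadd45g (0.61 ± 0.42, percentile 92.3) were also high. Btg1 (-0.06 ± 0.25) and Gadd45a (-0.26 ± 0.49) lay near the median of -0.34, and Wee1 (-1.04 ± 0.40, percentile 20.8) and Ccng2 (-1.48 ± 0.20, percentile 10.1) were low. The 2 cyclin G genes were thus the least efficient of the set, and the CDK inhibitor and the D cyclin the most.

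The order of the genes by level changed with the assay for that reason. In footprints the highest means were those of Gadd45g (33.0 ± 26.6 RPKM, SD, n = 24) and Ccnd1 (28.3 ± 11.4 RPKM). Cdkn1a came after Btg1, with 9.12 ± 7.38 RPKM, and Wee1 was lowest with 2.68 ± 1.92 RPKM. In total RNA Ccng1 was the highest with 30.6 ± 3.88 RPKM and Cdkn1a the lowest with 2.83 ± 2.28 RPKM. Cdkn1a mRNA was thus the scarcest of the set by total RNA while its footprints exceeded those of Ccng1, at 4.95 ± 0.69 RPKM. The Cdkn1a and Gadd45a loci overlap annotated genes on the opposite strand (AC167363.2 and E230016M11Rik), as does Wee1 (1600010M07Rik), none of them listed in the tables, and reads of such partners cannot be told apart without strand.

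**Figure D4:**
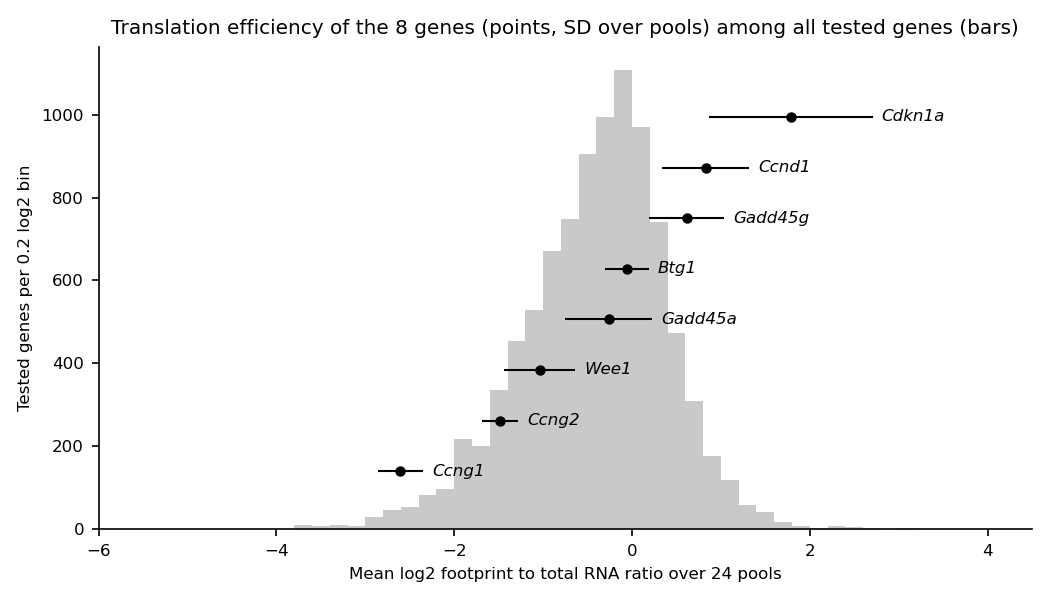
Distribution of the mean log2 ratio of footprints to total RNA over 24 pools for 9445 tested genes (bars), with the 8 genes as points at their mean and SD over pools, stacked only for legibility. Cdkn1a, Ccnd1 and Gadd45g lie in the upper tail and Ccng1 in the lower tail.

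Related genes, in lists drawn up with earlier results known, are described by their counts. Among 21 tested p53 targets other than the 8 genes, 6 were called in footprints and 5 in total RNA, with median folds of 1.33 and 1.25 in these assays. Over all tested genes, 16.7% were called in footprints and 15.8% in total RNA, with median folds of 1.23 and 1.25. Ddit4, an inhibitor of mTORC1, had folds of 3.15 in footprints and 3.27 in total RNA (peaks ZT18.7 and ZT18.9). Gdf15, a stress hormone, had folds of 2.15 in footprints and 2.18 in total RNA, Bbc3 (PUMA), a promoter of cell death, 2.17 and 2.10, and Tigar, a phosphatase of glycolysis, 1.57 and 1.65. Mdm2, the ligase of p53, was not called, with folds of 1.26 in footprints and 1.19 in total RNA. The p53 targets of the 8 genes themselves did not share a time, as Gadd45a peaked at ZT10.1 and Cdkn1a at ZT22.5 in footprints while Ccng1 was level.

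Among 16 tested FOXO targets, genes that respond to fasting and insulin, 6 were called in footprints and 5 in total RNA, with median folds of 1.72 and 1.68, beside the same 16.7% and 15.8% called and medians of 1.23 and 1.25 over all tested genes. Pdk4, which shuts glucose carbon out of the mitochondrion, peaked at ZT23.2 in both assays, with folds of 8.32 in footprints and 6.59 in total RNA, near the peaks of Ccng2 and Btg1. Irs2, an insulin receptor substrate, had folds of 3.37 in footprints and 3.34 in total RNA with peaks at ZT1.07 and ZT0.885. Bnip3, a protein of mitophagy, peaked at ZT13.3 in footprints and ZT14.0 in total RNA, and Fbxo32, a subunit of a ubiquitin ligase, at ZT5.39 and ZT6.60. The peaks of the list were thus spread over the day.

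For the machinery that these regulators act on, the counts below stand beside the 16.7% of all tested genes called in footprints and 15.8% in total RNA. Of 10 tested G1 cyclins and kinases, 1 was called in each assay, the cyclin E1 gene Ccne1, with folds of 6.20 in footprints and 5.99 in total RNA and peaks at ZT11.6 and ZT11.7. Its level was low, with medians of 0.536 RPKM in footprints and 1.14 RPKM in total RNA. The other D cyclins were not called, Ccnd2 at 1.22-fold in footprints (total RNA 1.2-fold) and Ccnd3 at 1.26-fold (total RNA 1.29-fold). None of the 3 other tested CDK inhibitors was called, Cdkn1b (p27) among them with folds of 1.13 in footprints and 1.35 in total RNA. Of 6 tested genes that control CDK1 at G2 and mitosis, the list nearest to Wee1, 0 were called in footprints and 1 in total RNA, Atr at 1.5-fold. Of 14 tested RB and E2F genes 2 were called in footprints (E2f1 and Lin9) and 3 in total RNA (Lin52 too), and of 15 other cyclins and kinases 2 in footprints (Ccnf and Ccni) and 1 in total RNA (Ccnf). Of 8 tested relatives of the Gadd45 and Btg families 2 were called in each assay, Tob2 with folds of 2.15 in footprints and 2.10 in total RNA and Cnot7, a deadenylase subunit, with 1.75 and 1.83. Of 12 tested proliferation markers, Rrm2, a subunit of ribonucleotide reductase, was called in both assays (folds of 3.04 in footprints and 2.78 in total RNA, peaks ZT14.7 and ZT15.0) and Mcm2 in total RNA. The other tested markers did not meet the call rule in either assay, although adjusted p was under 0.05 with a fold under 1.5 for Pcna, Tk1, Mcm4 and Mcm7 in footprints (folds of 1.22 to 1.42) and for these genes, Mcm3 and Mcm5 in total RNA (1.25 to 1.49).

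**Figure D5:**
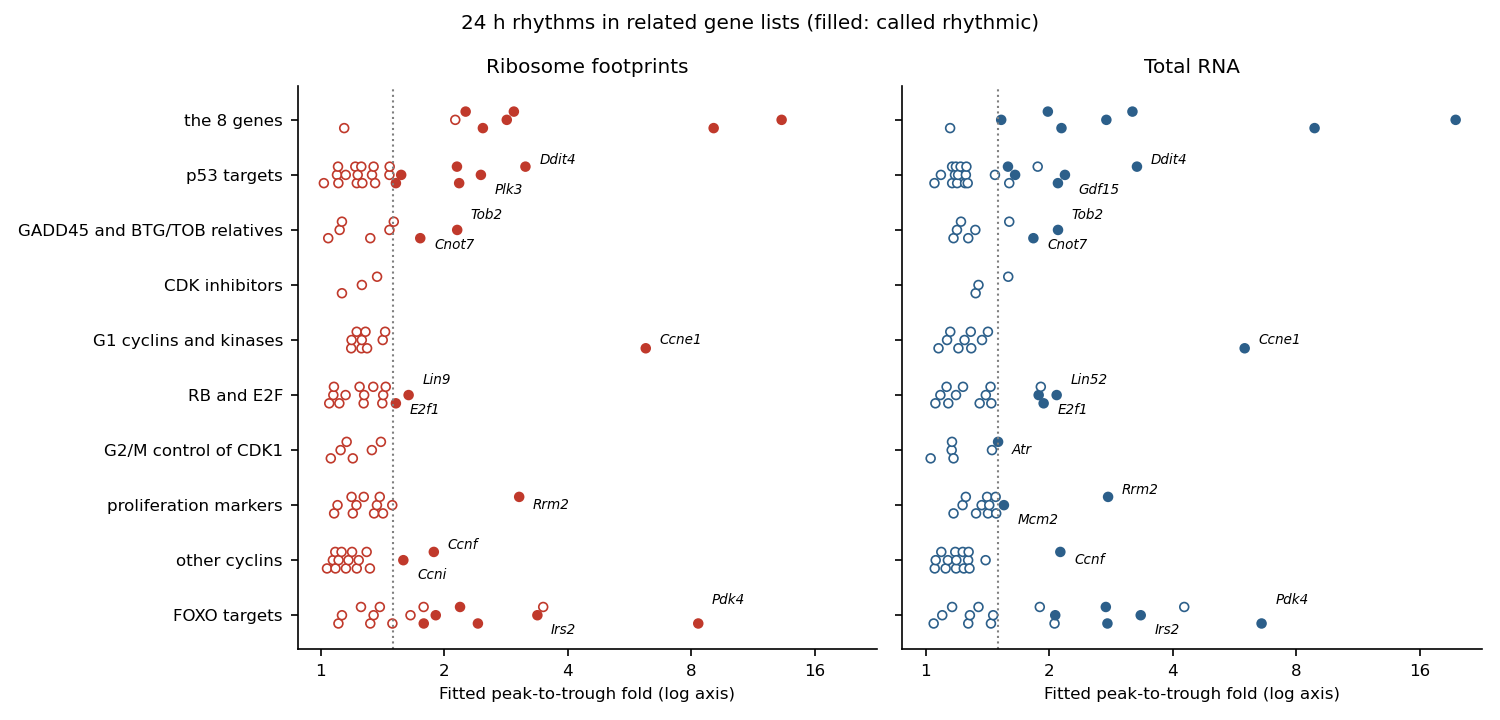
Fitted peak-to-trough fold (log axis, dotted line at 1.5) of the 8 genes and of the tested genes of 9 related lists, in footprints (left) and total RNA (right), with filled points for genes called rhythmic and the names of up to 2 called genes a list. Cdkn1a and Wee1 reach farther right than any listed gene of these lists in both assays, with Pdk4 and Ccne1 next.

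The genes most like each rhythmic regulator over the 24 total RNA libraries are given as a description, since libraries share their time points. Wee1 was nearest to Usp2 (r = 0.969 in footprints and 0.945 in total RNA, where it was chosen), Ak4 and Gys2. Among the genes nearest to Cdkn1a were Arhgef18 (r = 0.806 in footprints and 0.888 in total RNA) and the clock gene Arntl (0.895 in footprints and 0.859 in total RNA). Ccng2 was nearest to Dapk1, Wrnip1 and St5, and Btg1 to Dapk1, Hdac5 and Gm2a. The nearest genes of Ccnd1 (Wdsub1, Nr3c2 and Pigp) and Gadd45a (Supv3l1, Rcbtb1 and Nup50) had r from 0.132 to 0.716 in footprints, against 0.715 to 0.788 in total RNA, by which they were chosen. For Gadd45g, r with Ccdc6 was 0.125 in footprints and 0.820 in total RNA, r with Med15 was 0.205 and 0.793 in these assays, and r with Foxq1 was 0.765 and 0.779.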

How the data were processed

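The deposited values are RPKM per Ensembl gene, made by the authors, with 1 table for each of 48 libraries. Cufflinks 2.2.1, edgeR, TopHat and TopHat2 2.0.11, Bowtie2 2.2.1, cutadapt and CASAVA 1.82 are named per the submitters' processing notes, with the builds GRCm38.p2 and mm10. Not given in the sources used here are their order, the gene models, the use of strand, the treatment of reads with several matches and how libraries were scaled. RPKM is relative to the library, so a change of all transcripts together would not be seen.

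The genes and the related lists were chosen with earlier results of these data known. Genes that averaged 1 RPKM or more in each assay were tested with limma 3.58.1 (R 4.3.3, mean-variance trend, moderated F tests) on log2(RPKM + 0.1), with Benjamini-Hochberg adjustment over all 9445 genes. A fold change is on that scale and understates low genes. The terms were a 24 h cosine and sine in each assay, their interaction with assay over 48 libraries, the 12 time points as a factor, and a 12 h pair added to the 24 h pair. All 8 genes were named whatever their values, with at most 4 called genes a related list by total RNA fold. For each gene called in total RNA, the 3 most alike genes with a symbol outside the 8 were also chosen. One of the genes so chosen is not reported here. Other related genes (Plk3, Fas and Sesn3 were called in footprints alone and Rrm2b in total RNA alone, and Ccni, Mdm2, Ccnd2, Ccnd3 and Cdkn1b are given in the report) were chosen after their values were seen. The code was tested on simulated data.

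Both libraries of a replicate came from 1 lysate, per the labels' protocols, and deviations of same-numbered libraries from their time point's mean correlated across genes at 0.160 to 0.683, over 0.1 at all 12 time points. The main fit has no replicate block, and the paired fit is given beside it. Replicates are pools of different mice. No 2 libraries held identical values. The step in RPKM that 1 read makes was read from low values, and within 0.04 reads of a whole number were 61.7% to 68.1% of footprint values and 60.9% to 68.9% of total RNA values, too few for a count test, so reads are approximate. Alternatives covered the added value, the filter on low values, the scale, the trend, the minimum fold and leaving out each pool. Leaving out the 6 pools with pancreatic transcripts or both pools of ZT18 was chosen after seeing the data. Motif positions were found with Python 3.11.15.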

Additional observations from a re-analysis of the deposited data

How the results depend on the processing

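In footprints, 6 genes were rhythmic under every alternative that tested all 8 genes, and in total RNA 5 to 7 were. The calls that ended were those of Ccnd1 (24 of 35 settings) and Gadd45g (9 of 35) in total RNA, and that of Gadd45a in total RNA at a minimum fold of 2, and the cause was not tested. No direction turned round. A minimum mean of 5 RPKM left 3 of the 8 genes, by its construction, of which 2 were rhythmic in footprints and 3 in total RNA, 2 in footprints and 1 in total RNA differed between time points, and 0 had a 12 h component in footprints. The 12 h component was called in footprints for 0 genes without the 6 pools with pancreatic transcripts, 2 genes without both pools of ZT18, and 0 to 1 over single pools left out. In total RNA it was called for 0 to 1 over single pools left out. The replicate block, with both libraries of a lysate paired, was run on efficiency alone and left the count of the 8 genes with a rhythm there at 0, while over all tested genes it called 305 where the fit without it called 35, and among the related p53 targets 1 where that fit called 0. Total RNA reads were fewest for Cdkn1a and Gadd45a, which limits the precision of their folds.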

Other observations

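Some genes had differences between pools like those of Gadd45g. Those named here were picked after their values were seen, from the genes most alike or most opposite in their 12 total RNA differences. Their values in total RNA thus follow from that choice, and their likeness is a description. Myc, Socs3, Cish, Plk3, Foxq1 and Phlda1 were also alike in footprints. Tmco4 and Ccdc59 were nearly as alike in total RNA but less so in footprints (likeness of 0.406 in footprints and 0.835 in total RNA for Tmco4, -0.316 and 0.832 for Ccdc59, where 1 is the same pattern), and Psmb6 (-0.461 in footprints and -0.845 in total RNA) and Csrp3 (-0.374 and -0.830) ran the other way. Myc, a driver of growth, was high in the same pool as Gadd45g at 12 of 12 time points in footprints and 11 in total RNA, with 1.44 to 12.5 RPKM (median 3.97) in footprints and 0.547 to 8.18 RPKM (median 1.95) in total RNA. Socs3, a feedback inhibitor of cytokine receptors, shared the direction at 11 time points in footprints and 10 in total RNA, with 0.756 to 10.3 RPKM in footprints and 1.21 to 11.3 RPKM in total RNA. Cish, its relative, did so at 11 and 10 time points in these assays, with 1.71 to 44.1 RPKM in footprints and 1.53 to 15.4 RPKM in total RNA. The kinase gene Plk3 did so at 12 time points in footprints and 10 in total RNA, Foxq1, a forkhead factor, at 11 in each assay, and Phlda1 at 10 in footprints and 9 in total RNA. What set these pools apart was not tested.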
